A study of Mus musculus with 6 samples.

Results

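Opposite-strand transcripts are RNAs made from the DNA strand opposite to a named gene, and mouse nomenclature marks them with the ending os after the symbol of that gene, here called the sense partner. Features were selected where the name ended in os and the name without os was also listed, and where at least 2 of the 6 libraries held 10 or more counts. Of 197 such named features, 38 met the minimum, among 41128 features listed in all. The libraries came from mouse embryonic lenses at E13.5. Of these, 3 were from a Prox1 conditional knockout (Prox1 cKO, genotype Prox1 f/f MLR10Cre+) and 3 from wild type. The strain is given as C57Bl/6 for all 6, and the design text adds the mark har for the controls. Each library was made from RNA of 30 pooled lenses and is labelled a biological replicate. Nothing in the labels says that pools came from separate litters, so p-values reflect only the variation among pools. MLR10Cre is a transgene that drives Cre recombinase in lens cells, so Prox1 in other cells of a dissected lens would not be recombined. The exon flanked by loxP sites was not given in the sources used here. The labels name no control library with the Cre transgene alone or the floxed allele alone.

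Many opposite-strand transcripts begin beside the start of their partner, where a single open promoter is read in both directions. Others run through the partner's exons or face it end to end. Some act on their partner, some encode a protein of their own, and for many no role is known. Prox1 encodes a homeodomain transcription factor needed for the elongation of lens fibre cells, and Prox1os starts inside the first exon of Prox1 and runs away from it. At imprinted loci such as those of Igf2 and Dio3, opposite-strand RNAs are made beside the genes whose parental copies are used unequally. The kit selected polyadenylated RNA and kept no strand, so a read from bases that both genes use cannot be given to either of them.

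In GENCODE M21 (GRCm38), all 38 features were found, and none lay on the same strand as its partner. There were 22 antisense genes, 6 protein-coding genes, 4 processed transcripts, 3 lincRNAs, 2 bidirectional promoter RNAs and 1 transcribed pseudogene. The start of 25 features lay within 1000 bases of the partner's start. In 16 pairs the genes overlapped head to head, and in 13 they diverged without overlap. The other arrangements were 3 pairs tail to tail, 3 convergent without overlap, 2 with the feature inside the partner's span and 1 with the feature spanning the partner. Exon bases were shared with the partner by 20 features and with no annotated gene by 11.

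Prox1os (ENSMUSG00000079045, chromosome 1, 190170296 to 190217276, plus strand) has 2 exons. The exon from 190170296 to 190170428 holds 133 bases, and all of them lie inside the first exon of Prox1. The exon from 190216582 to 190217276 holds 695 bases, lies 45.9 kb upstream of the Prox1 start and shares no base with another annotated gene. Its last 150 bases (GRCm38, chr1:190217127-190217276, plus strand) are shown because counts from them cannot come from annotated Prox1 exons, with the polyadenylation signal AATAAA in capitals, 15 bases before the end.
Prox1os 3′ end: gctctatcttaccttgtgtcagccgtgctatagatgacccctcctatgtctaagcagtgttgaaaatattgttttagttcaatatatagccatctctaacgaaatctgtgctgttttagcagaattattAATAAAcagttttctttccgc
The letters AATAAA or ATTAAA occurred on the transcript strand in the last 50 bases of at least 1 transcript of 33 of the 38 features. Over single transcripts, either was found in 54.2% of 120 transcripts of the features and in 33.7% of 141767 transcripts of the annotation.

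**Figure D1:**
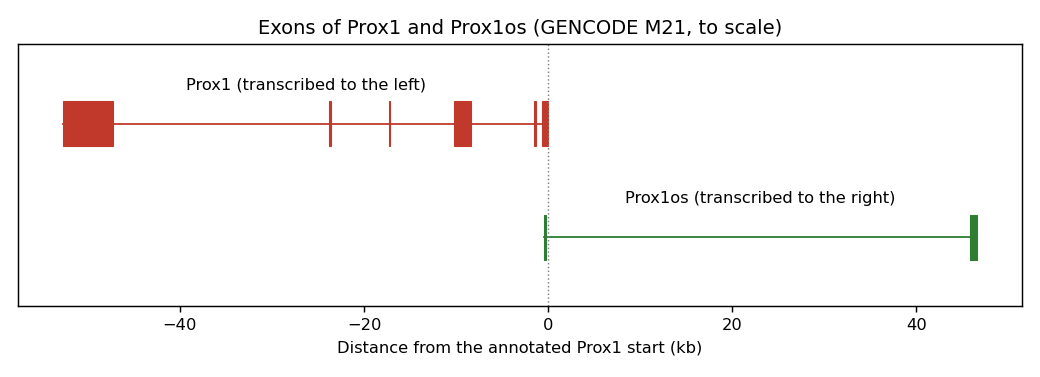
Annotated exons (boxes) and introns (lines) of Prox1 and Prox1os against the distance from the Prox1 start in kb, with Prox1 read to the left and Prox1os to the right. The small Prox1os exon of 133 bases sits inside the first Prox1 exon, and its 695-base exon stands 45.9 kb away with no Prox1 exon near it.

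Start regions of 2 pairs whose members changed together are shown as RefSeq windows of 300 bases (GRCm38.p6), from 250 bases before to 50 bases after the RefSeq start, with CG dinucleotides in capitals. The Brip1 window (chr11:86201144-86201443, minus strand) also holds the annotated start of Brip1os, at position 74 from the window's 5′ end, on the other strand. The Dio3os window (chr12:110278019-110278318, minus strand) lies beside Dio3, whose annotated start falls outside it.
Brip1: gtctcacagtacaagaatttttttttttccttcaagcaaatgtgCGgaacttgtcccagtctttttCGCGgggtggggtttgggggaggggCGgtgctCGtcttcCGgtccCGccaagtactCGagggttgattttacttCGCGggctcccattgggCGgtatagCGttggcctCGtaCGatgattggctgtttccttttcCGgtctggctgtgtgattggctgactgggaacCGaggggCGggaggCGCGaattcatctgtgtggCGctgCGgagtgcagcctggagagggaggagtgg
Dio3os: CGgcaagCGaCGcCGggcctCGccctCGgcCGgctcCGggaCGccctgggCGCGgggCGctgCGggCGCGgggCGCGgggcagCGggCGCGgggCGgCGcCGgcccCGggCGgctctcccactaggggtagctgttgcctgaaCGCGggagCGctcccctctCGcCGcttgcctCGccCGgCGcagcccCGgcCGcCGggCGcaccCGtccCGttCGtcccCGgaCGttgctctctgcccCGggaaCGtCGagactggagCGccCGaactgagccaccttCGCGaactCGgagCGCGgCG
The Brip1 window holds 21 CG dinucleotides, a number reached by 24.8% of all RefSeq windows, and the Dio3os window holds 53, reached by 0.451%. RefSeq windows were found for 27 of the features, with a median of 16 CG, and for 31 partners, with a median of 21, against 7 over all 32851 windows. The letters TATAAA, searched on both strands, were in 8.11% of the features' windows, in 4.65% of the partners' and in 13.6% of all. A match of letters is a description of the window and not a measured site.

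Library totals were 28391662, 10907877 and 9082219 counts for the cKO and between 20731491 and 21061582 for the wild type. Counts of the 38 features made up between 0.0235% and 0.0321% of a library. Lens fibre markers summed to between 18749 and 21326 CPM (counts scaled to library size by TMM) in the cKO and to between 92304 and 172534 CPM in the wild type, so the labelled tissue carried its markers. Of the 8 fibre markers chosen, 7 were listed among the features. Lens epithelium markers summed to 2325, 2303 and 2125 CPM in the cKO and to 1390, 1307 and 1492 CPM in the wild type. Of these 6 markers, all tested, 4 were higher and 1 lower. Fewer cells of a type and less RNA per cell cannot be told apart in such bulk samples. Knockout library 3 stood apart with 2267 CPM of periocular mesenchyme markers, against 475 and 657 CPM in the other knockout libraries and between 194 and 382 CPM in the wild type. Defining markers Sox2 (neural retina) and Foxc2 (periocular mesenchyme) were listed at 0 in all 6 libraries. These values of 0 do not show that Sox2 or Foxc2 RNA, or cells of those tissues, were absent. Wild type library 1 held the lowest fibre sum of its group, 92304 CPM.

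Expression was compared by edgeR's quasi-likelihood test over all 14271 features that passed its filter on low counts, and a feature was called at a Benjamini-Hochberg adjusted p under 0.05. Of the 38 features, 36 passed the filter, and 7 of them (19.4%) were called. The share called among all tested features was 32.6%, and among 521 tested noncoding features it was 22.1%. In the knockout, 5 features were higher (Vax2os, Dio3os, Chd3os, Brip1os and Igf2os), where 15.9% of all features were, and 2 were lower (Prox1os and Sp3os), where 16.8% were. With library totals alone as the scaling, 11 features were higher and 1 lower, and over all features 5423 were higher and 945 lower, in place of 2263 and 2396. That scaling moved the median log2 change of all features by 0.35. The median log2 change of the 36 features was 0.16 and that of all features 0.04. Groups of libraries did not overlap for 15 of the 36 features, and for 50.1% of all tested features. Most calls fell on the more abundant features. Of the 12 with a mean of at least 5 CPM, 6 were called (50%), where 36.4% of all features at that level were. Of the 24 tested below 5 CPM, 1 was called (4.17%), where 20.8% were. The called feature below 5 CPM was Dio3os.

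Of the 38 partners, 34 passed the filter and 14 were called (41.2%, against 32.6% of all features), 5 higher and 9 lower, with a median log2 change of 0.03. Over all features, 15.9% were higher and 16.8% lower. Both genes were tested in 32 pairs. The feature was called in 7 of these and the partner in 13. Both were called in 4 pairs, those of Prox1, Brip1, Chd3 and Dio3 with their opposite-strand features. In each of the 4, both genes changed in the same direction. Whether 4 is more than unrelated calls would give was not tested. The number of pairs with both called was 1 without wild type library 2 or 3, 2 without knockout library 3 and 7 with library totals alone. In 3 pairs only the os feature was called (Igf2os, Vax2os and Sp3os), in 9 only the partner, and in 16 neither. A call in only 1 gene of a pair does not show that the genes differed.

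**Figure D2:**
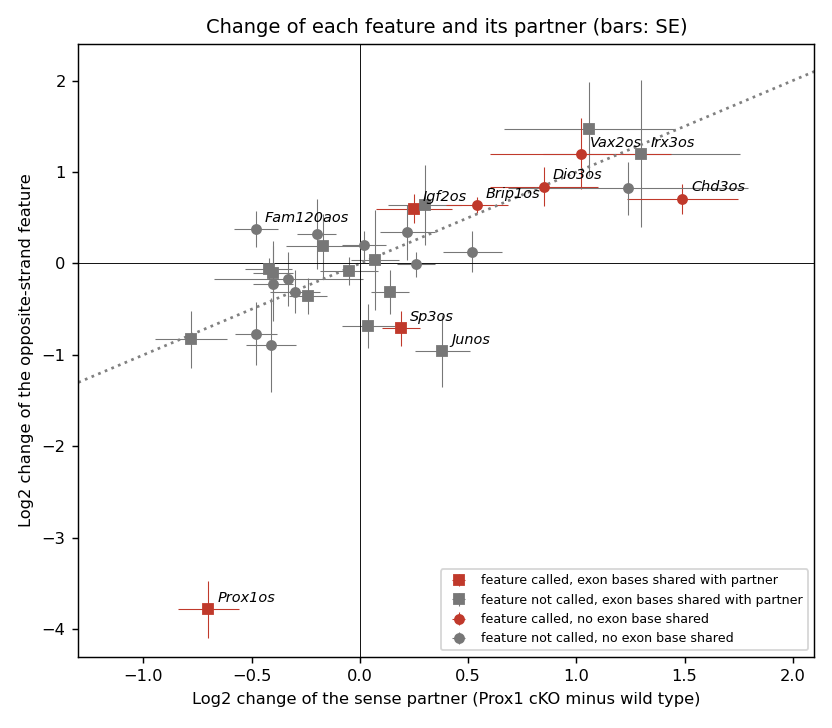
Log2 change (Prox1 cKO minus wild type) of 32 opposite-strand features against that of their partners, with standard errors as bars and the dotted line marking equal change. Most points lie near the line, and Prox1os lies far below it at -3.78 against -0.70 for Prox1.

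Over the 32 pairs, the log2 changes of feature and partner had the same sign in 24, with a Pearson r of 0.661 and a Spearman rho of 0.69. Over the 16 pairs without shared exon bases, r was 0.789 and rho 0.753, with the same sign in 13. Over the 16 pairs that share exon bases, r was 0.667 and rho 0.515, with the same sign in 11. With the Prox1os pair left out, r was 0.723 and rho 0.66 over 31 pairs. These correlations run across genes, which are not independent replicates, and both values of a pair come from the same libraries and the same scaling.

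The largest change belonged to Prox1os, which fell in the cKO. Its levels were 3.65, 7.01 and 4.44 CPM in the cKO libraries and 43.4, 74.7 and 82.3 CPM in those of the wild type, from 124, 84 and 44 counts and from 898, 1305 and 1430 counts. Every knockout library lay far below every wild type library. The log2 change was -3.78 (SE 0.313, edgeR adjusted p 0.000163), a 13.7-fold lower level. Leaving out any 1 library gave log2 changes between -4.08 and -3.53, and Prox1os was called in all 13 alternatives tested. Lens fibre markers were lower too, in 7 of 7 tested, with sums of 18749, 18802 and 21326 CPM in the cKO and 92304, 162664 and 172534 CPM in the wild type. As for Prox1os, wild type library 1 was the lowest of its group. The part of the fibre marker change in the fall of Prox1os was not tested.

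Prox1, the targeted gene (ENSMUSG00000010175, chromosome 1, 190118035 to 190170714, minus strand), had 651, 728 and 707 CPM in the cKO libraries and 922, 1215 and 1246 CPM in those of the wild type. These groups did not overlap either, but the change was smaller, with a log2 change of -0.70 (SE 0.141, edgeR adjusted p 0.0074), or 1.62-fold lower. With library totals alone as the scaling it was -0.34 (edgeR adjusted p 0.0532). The count of Prox1 covers all of its exons, including those that Cre leaves in place. Per length, Prox1os stood at 6.81 ± 2.18 RPKM (deposited reads per kilobase, scaled to library size) in the cKO and 70.2 ± 16.5 RPKM in the wild type. Prox1 stood at 93.8 ± 1.67 RPKM and 118 ± 8.69 RPKM (SD, n = 3 each), respectively. The level of Prox1os relative to Prox1 was thus 0.592 in the wild type and 0.0726 in the cKO.

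The log2 ratio of Prox1os to Prox1, from CPM with 0.5 added to each, was -7.30, -6.60 and -7.16 in the cKO and -4.39, -4.01 and -3.91 in the wild type. The groups did not overlap and differed by -2.91 (two-sided exact permutation test, p = 0.1, the smallest p that 3 against 3 libraries allow). Apart from the added 0.5 CPM, a ratio within a library does not depend on how libraries are scaled to each other. Exon bases shared with Prox1 made up 16.1% of the Prox1os exons and 1.59% of the Prox1 exons. Counts are listed per gene, so the share of Prox1os counts from each of its exons is not known. Among neighbouring genes, Smyd2, a lysine methyltransferase, fell by 0.41 on the log2 scale (edgeR adjusted p 0.0341). The phosphatase gene Ptpn14 had a log2 change of 0.36 (edgeR adjusted p 0.236).

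Sp3os was the other feature that fell. It starts 1022 bases inside Sp3, which encodes a zinc finger transcription factor of the Sp family, and shares 109 exon bases with it. Levels were 5.97, 4.68 and 4.54 CPM in the cKO and 7.63, 7.96 and 9.67 CPM in the wild type, with no overlap. The log2 change was -0.71 (SE 0.19, edgeR adjusted p 0.0223). The call was lost with library totals alone, where the log2 change was -0.35 (adjusted p 0.223). It was also lost without knockout library 2 (0.0702) or 3 (0.0561) and without wild type library 2 (0.0584) or 3 (0.0816), all edgeR adjusted p. Sp3 had 164, 153 and 146 CPM in the cKO and 137, 136 and 133 CPM in the wild type, with a log2 change of 0.19 (edgeR adjusted p 0.122). With library totals alone, Sp3 was higher by 0.54 on the log2 scale (edgeR adjusted p 0.00899). The log2 ratio of Sp3os to Sp3 was -4.67, -4.89 and -4.86 in the cKO and -4.08, -4.01 and -3.71 in the wild type, a difference of -0.87 (two-sided exact permutation p = 0.1, the smallest possible). The groups of ratios did not overlap.

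Brip1os rose and had the smallest standard error among the called features. This antisense RNA of 6498 exon bases (chromosome 11, 86201370 to 86304443, plus strand) diverges from Brip1, whose protein is a DNA helicase of the Fanconi anaemia pathway. Brip1os had 76.4, 73.6 and 73.2 CPM in the cKO and 51.3, 43.9 and 48.3 CPM in the wild type. All knockout libraries lay above all wild type libraries. The log2 change was 0.64 (SE 0.0917, edgeR adjusted p 0.00161), and Brip1os was called in all 13 alternatives, with log2 changes between 0.55 and 0.65 when 1 library was left out. No exon base is shared with Brip1, but 512 are shared with Ints2 and 800 with Med13 on the opposite strand.

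Brip1 itself had 18.7, 19 and 24.1 CPM in the cKO and 14.6, 14.7 and 13 CPM in the wild type, and rose by 0.54 on the log2 scale (edgeR adjusted p 0.0222). Its call was lost without knockout library 3 (0.0525) or without wild type library 2 (0.0753) or 3 (0.104), all edgeR adjusted p. Brip1os was the more abundant of the pair per length, at 12.9 ± 0.999 RPKM in the cKO against 3.11 ± 0.381 RPKM for Brip1, and at 6.55 ± 1.08 against 1.68 ± 0.24 RPKM in wild type lenses (SD, n = 3 each). The log2 ratio of Brip1os to Brip1 was 2.00, 1.93 and 1.58 in the cKO and 1.78, 1.55 and 1.86 in the wild type, and these groups overlapped.

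Dio3os and Dio3 rose by similar amounts. Dio3 is an imprinted single-exon gene that encodes the deiodinase which inactivates thyroid hormone, and Dio3os runs away from it with 896 bases between their starts. Dio3os had 5.47, 4.17 and 5.65 CPM in the cKO and 2.99, 2.98 and 2.59 CPM in the wild type, without overlap. The log2 change was 0.84 (SE 0.21, edgeR adjusted p 0.0179), and the adjusted p was 0.0659 without wild type library 2 and 0.0788 without wild type library 3. Dio3 had 8.06, 5.51 and 7.46 CPM against 3.43, 5.15 and 3.17 CPM, a log2 change of 0.85 (SE 0.249, edgeR adjusted p 0.0316). The call of Dio3 was lost without knockout library 1 (0.0894) or 3 (0.0654) and without wild type library 1 (0.0795) or 3 (0.126). In both groups the pair stood at nearly the same level per length, with RPKM ratios of Dio3os to Dio3 of 1.15 in the cKO and 1.17 in the wild type.

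Chd3os is a protein-coding gene by its annotation and faces the end of Chd3, a chromatin remodelling ATPase of the NuRD complex, without overlap. It shares exon bases with no annotated gene. Chd3os had 15.1, 11.4 and 11.3 CPM in the cKO and 7.97, 7.67 and 7.66 CPM in the wild type, without overlap. It rose by 0.71 in log2 units (SE 0.164, edgeR adjusted p 0.0134), and the adjusted p was 0.0611 without wild type library 2 and 0.0556 without wild type library 3. Chd3 had 158, 190 and 280 CPM in the cKO and 99.7, 57 and 65.8 CPM in the wild type, and rose by 1.49 (SE 0.257, edgeR adjusted p 0.00365). The log2 ratio of Chd3os to Chd3 was -3.35, -3.99 and -4.57 in the cKO and -3.56, -2.82 and -3.02 in the wild type. Its groups overlapped, and the difference of -0.84 had a two-sided exact permutation p of 0.2.

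Igf2os rose, and its partner was the most abundant of all partners by CPM. Igf2 encodes an imprinted growth factor. The feature shares 98 exon bases with Igf2 and 1142 with the annotated protein-coding gene Gm49394 on the opposite strand, 23.2% of its exon bases in all. Igf2os had 25.4, 26.1 and 27 CPM in the cKO and 20.6, 17.8 and 13.3 CPM in the wild type, without overlap, and rose by 0.60 in log2 units (SE 0.161, edgeR adjusted p 0.0226). The adjusted p was 0.0582 and 0.0505 without knockout library 2 or 3, and 0.0747 and 0.0706 without wild type library 2 or 3. Igf2 had 2649, 3696 and 3819 CPM in the cKO and 2809, 3177 and 2559 CPM in the wild type, and these overlapped. The log2 change of Igf2 was 0.25 (edgeR adjusted p 0.294), or 0.59 (edgeR adjusted p 0.0159) with library totals alone. The ratio of Igf2os to Igf2 differed by 0.38 on the log2 scale with overlapping groups (two-sided exact permutation p = 0.3).

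Vax2os had the largest increase among the called features. Vax2 encodes a homeodomain factor of the ventral retina and optic stalk, and the pair overlaps head to head without sharing exon bases. Vax2os had 11.3, 11.5 and 6.76 CPM in the cKO and 7.24, 2.92 and 2.71 CPM in the wild type. Wild type library 1 lay above knockout library 3, so the groups overlapped. The level was 2.3-fold higher (log2 SE 0.389, edgeR adjusted p 0.0447). The adjusted p was 0.105 and 0.11 without knockout library 1 or 2, and 0.158 and 0.136 without wild type library 2 or 3. Without wild type library 1 it was 0.00298, with a log2 change of 1.78.

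Vax2 likewise had wild type library 1 above knockout library 3, with 12.3, 10.9 and 8.57 CPM in the cKO and 9.42, 3.38 and 2.82 CPM in the wild type. Its log2 change was 1.02 (SE 0.417, edgeR adjusted p 0.0901), and the pair's log2 ratio stayed between -0.36 and 0.08 in all 6 libraries. Neural retina markers summed to 902, 554 and 581 CPM in the cKO libraries and to 499, 366 and 387 CPM in those of the wild type. Of the 8 listed, 7 were tested and 3 were higher, and Sox2 was listed at 0. The part of these markers in the change of Vax2os was not tested.

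**Figure D3:**
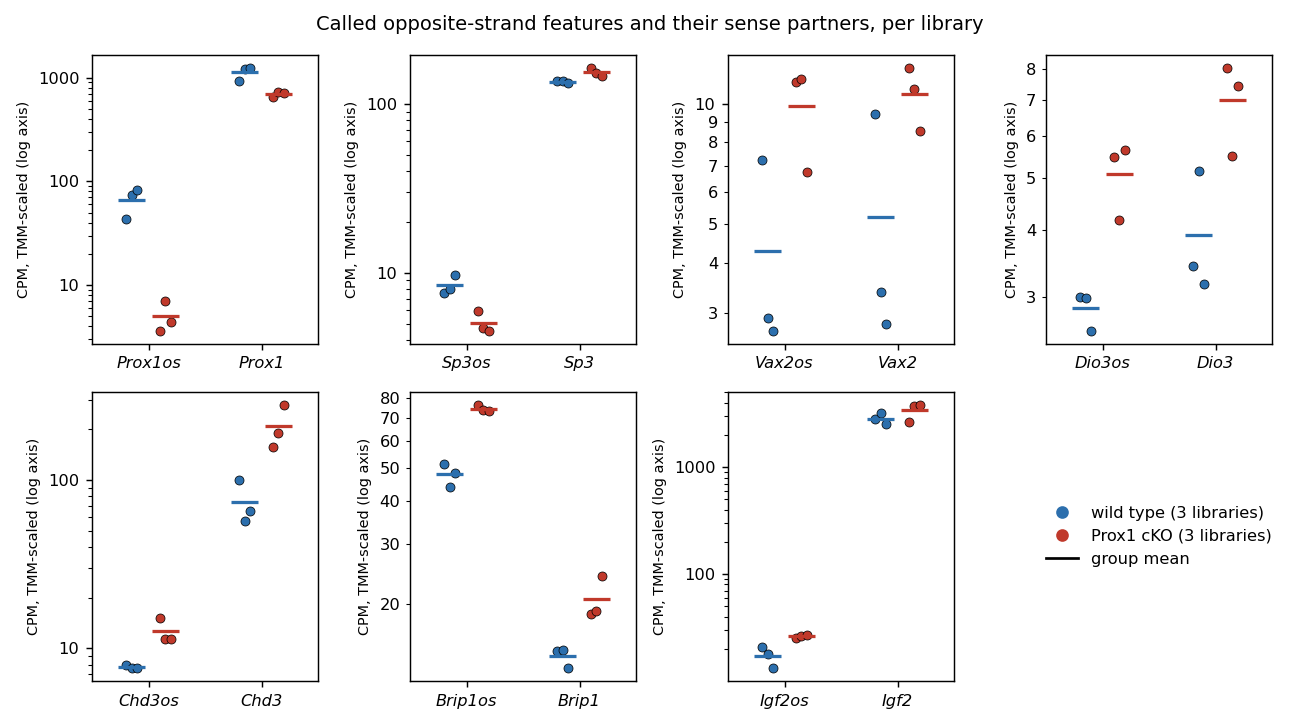
TMM-scaled CPM on a log axis in each of 3 wild type (blue) and 3 knockout (red) libraries for the 7 called features and their partners, with the group mean as a bar. Prox1os shows the widest gap between groups, and the blue Vax2os point at 7.24 CPM lies above the lowest red point at 6.76 CPM.

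The ratio of feature to partner was compared within each library. In 8 of the 32 pairs tested for both genes, the ratios of the groups did not overlap; no background for this count exists over other genes, and the two-sided exact permutation p of each was 0.1. The ratio was lower in the cKO for Prox1os, Junos, Sp3os, Toporsos and Zeb2os, with differences between -2.91 and -0.44 on the log2 scale. It was higher for Fam120aos, Rab10os and Mccc1os, with differences between 0.33 and 0.81. Mccc1os lay near the added 0.5 CPM, at between 0.518 and 0.821 CPM, and its separation rests on that addition. In plain counts, Mccc1os to Mccc1 was 17 to 719 in wild type library 1 and 7 to 331 in knockout library 2. The former ratio is the higher, so the groups of Mccc1os overlap without the added 0.5 CPM. Of the 16 pairs that share exon bases, 7 were among the 8, and of the 16 pairs that share none, 1 was, namely Fam120aos. Mccc1os is among the 7 only with the added 0.5 CPM. No reference share exists for this split either, and a link between shared exon bases and the ratio was not tested.

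Fam120aos starts 270 bases from Fam120a, which encodes an RNA-binding scaffold protein. It had 4.47, 3.84 and 4.94 CPM in the cKO and 3.43, 3.26 and 3.45 CPM in the wild type, a log2 change of 0.38 (edgeR adjusted p 0.162). Fam120a had 247, 269 and 267 CPM against 330, 377 and 387 CPM and fell by 0.48 on the log2 scale (edgeR adjusted p 0.00916). In Junos, whose partner Jun encodes a subunit of the AP-1 transcription factor, levels were 0.412, 0.334 and 0.605 CPM in the cKO and 0.628, 1.09 and 0.864 CPM in the wild type. These rest on 4 to 19 counts per library, and the log2 change was -0.96 (edgeR adjusted p 0.0932). Jun rose by 0.38 (edgeR adjusted p 0.0497). These members were chosen for description after their values were seen.

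**Figure D4:**
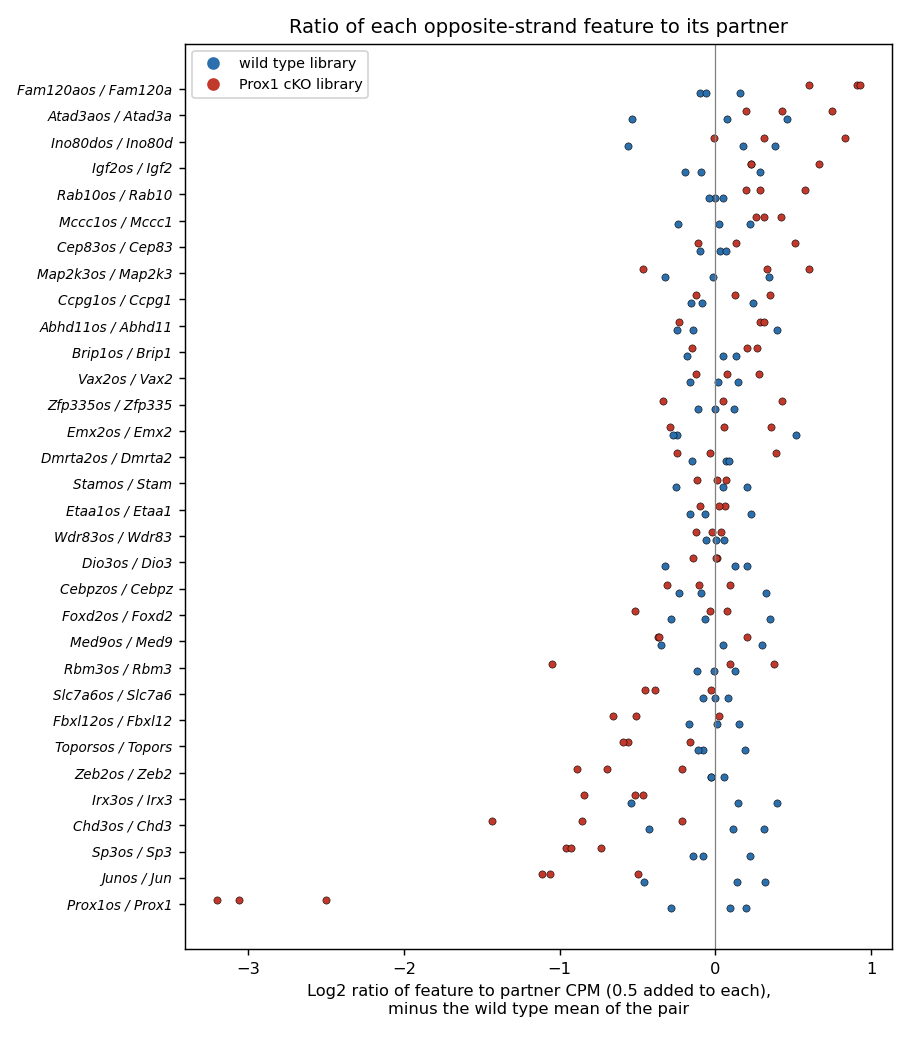
Log2 ratio of feature to partner in each library, minus the wild type mean of that pair, for the 32 pairs with both genes tested, with wild type libraries in blue and knockout libraries in red. The red points of Prox1os lie far to the left of its blue points, those of Sp3os and Junos also lie to the left without overlap, and those of Fam120aos lie to the right.

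Among the most abundant features per length, Prox1os had a mean of 38.5 RPKM over the 6 libraries, Slc7a6os 18.4, Wdr83os 14.7 and Brip1os 9.75. The median was 1.39 RPKM for the features and 8.53 RPKM for the partners, and the lowest mean was 0.088 RPKM, for Mccc1os. Slc7a6os and Wdr83os both encode proteins, and Wdr83os encodes a protein of the endoplasmic reticulum that helps membrane proteins to fold. Slc7a6os had 33, 25.5 and 24.1 CPM in the cKO and 28.5, 26.9 and 28.4 CPM in the wild type, a log2 change of -0.01 (SE 0.135, edgeR adjusted p 0.96). Wdr83os had 16.9, 14.9 and 12 CPM against 15.5, 15.2 and 16 CPM, a log2 change of -0.08 (SE 0.15, edgeR adjusted p 0.695). The groups overlapped for both. Slc7a6, an amino acid transporter gene, had a log2 change of 0.26 (edgeR adjusted p 0.0521), and Wdr83, which encodes a WD repeat protein, of -0.05 (edgeR adjusted p 0.775). With library totals alone, the log2 changes of Slc7a6os and Wdr83os were 0.35 and 0.28, neither called.

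Per length, 8 features stood above their partner in both groups: Brip1os, Ccpg1os, Dio3os, Foxd2os, Pou3f3os, Rab26os, Wdr83os and Zfp85os. Foxl2os did so in the wild type only. Its partner Foxl2 had 13, 4 and 19 counts in the cKO and 6, 3 and 0 in the wild type. The deposited RPKM of Foxl2 implies 1241 bases, where GENCODE M21 gives 3256 exon bases, so this difference rests on low counts and on the length used. Rab26, the partner of Rab26os, was low too, with 15, 6 and 4 counts in the cKO and 3, 2 and 4 in the wild type. The partner of Pou3f3os, the single-exon gene Pou3f3 of a POU-domain factor, was listed at 0 in all 6 libraries. The place of Pou3f3os among the 8 rests on that 0, which does not show that Pou3f3 RNA was absent. The single-exon genes Sox1 and Sox2 were listed at 0 in all 6 libraries too. Pou3f3os itself had 37, 9 and 11 counts in the cKO and 11, 2 and 8 in the wild type, a log2 change of 1.39 (edgeR adjusted p 0.0571).

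The features sharing most exon bases with their partner were Zeb2os with 653, Wdr83os with 539, Ino80dos with 431 and Zfp85os with 340. In Wdr83os this was 52.3% of its exon bases, in Zeb2os 32.8%, in Ino80dos 15% and in Zfp85os 7.81%. Zeb2os lies within the span of Zeb2, a zinc finger repressor gene, and had 1.79, 1.67 and 1.31 CPM in the cKO and 2.46, 2.75 and 2.59 CPM in the wild type. Its groups did not overlap, and its log2 change was -0.68 (SE 0.241, edgeR adjusted p 0.059). Zeb2 had 171, 227 and 216 CPM against 195, 213 and 191 CPM, a log2 change of 0.04 (edgeR adjusted p 0.839). Ino80dos and its partner Ino80d, a subunit of the INO80 chromatin remodeller, had log2 changes of 0.19 (edgeR adjusted p 0.692) and -0.17 (edgeR adjusted p 0.458). Zfp85os had a log2 change of 0.48 (edgeR adjusted p 0.326), and its partner, the zinc finger gene Zfp85, had 5 counts or fewer in each library and was not tested.

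The 4 features Foxl2os, Emx2os, Foxd2os and Irx3os, picked after their values were seen, each had their highest level in knockout library 3. This was not particular to them. Abhd11os, Dio3os, Fam120aos, Fbxl12os, Igf2os, Pou3f3os and Zfp85os were also highest in that library. Foxl2os had 1.29, 0.835 and 4.44 CPM in the cKO and 0.724, 0.515 and 0.633 CPM in the wild type, with a log2 change of 1.71 (edgeR adjusted p 0.0602). Emx2os had 1.18, 1.34 and 2.93 CPM against 0.966, 0.573 and 0.288 CPM, with a log2 change of 1.47 (edgeR adjusted p 0.0575). Foxd2os had 2.76, 2.84 and 4.84 CPM against 2.12, 1.78 and 1.9 CPM, with a log2 change of 0.82 (edgeR adjusted p 0.057). Irx3os had 0.441, 0.25 and 1.51 CPM against 0.531, 0.0573 and 0.23 CPM, 2.3-fold higher in the fit (edgeR adjusted p 0.276). By edgeR over the 6 libraries, none of these 4 was called. DESeq2 called Foxl2os (adjusted p 0.0237) and Emx2os (0.0421), and edgeR without the filter called the same pair (0.0242 and 0.033). Scaled by library totals alone, edgeR called Foxl2os (0.0147), Emx2os (0.0168) and Foxd2os (0.0126). It also called Foxd2os by upper quartile scaling (0.0491) and without knockout library 1 (0.0487). Foxl2os was called without knockout library 1 (0.0493) or 2 (0.0341), and Emx2os without knockout library 1 (0.0485) or wild type library 1 (0.0351). Without knockout library 3, log2 changes were 0.82 in Foxl2os, 0.99 in Emx2os, 0.53 in Foxd2os and 0.40 in Irx3os, none called.

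Their partners Foxl2, Emx2, Foxd2 and Irx3 encode forkhead and homeodomain factors, and the highest level of each was in knockout library 3, at 1.92, 4.94, 3.13 and 11.8 CPM. The same library held the most periocular mesenchyme signal, 2267 CPM. Of the 7 markers on that list, 6 were tested and 2 were higher. Pigment cell markers summed to 345, 248 and 701 CPM in the cKO and to 164, 52.2 and 133 CPM in the wild type, with 6 of 6 higher. Surface ectoderm markers summed to 45.7, 20.3 and 97.2 CPM and to 14.6, 3.72 and 12.3 CPM, with 5 of 5 higher. The part of these cells in the values of the 4 features was not tested.

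In 9 pairs only the partner was called. Fam120a, Map2k3, Mccc1, Med9, Rab10, Stam and Zfp335 were lower, and Fbxl12 and Jun were higher. These encode, besides the RNA-binding scaffold, the Rab10 GTPase of membrane traffic, a kinase upstream of p38, a subunit of the Mediator complex, an endosomal sorting adaptor, a mitochondrial carboxylase subunit, a zinc finger protein, an F-box protein and the AP-1 subunit. Rab10os had 17.2, 15.4 and 15.7 CPM in the cKO and 16, 18.2 and 16.2 CPM in the wild type, with a log2 change of -0.06 (SE 0.123, edgeR adjusted p 0.745). Rab10 had 41.8, 48.8 and 46.7 CPM against 58.3, 68 and 56.8 CPM and fell by 0.42 on the log2 scale (edgeR adjusted p 0.0202). The other 8 os features of these pairs had log2 changes between -0.96 and 0.38.

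The features that were tested and not called, besides those described, were Abhd11os, Atad3aos, Ccpg1os, Cebpzos, Cep83os, Dmrta2os, Etaa1os, Fbxl12os, Map2k3os, Mccc1os, Med9os, Rab26os, Rbm3os, Stamos, Toporsos and Zfp335os. Their log2 changes ran from -0.89 in Med9os to 0.64 in Abhd11os, and their edgeR adjusted p from 0.0695 in Zfp335os to 0.965 in Rbm3os. Zfp335os and Zfp335 had log2 changes of -0.83 and -0.78, and only the partner was called (edgeR adjusted p 0.00928). In Cebpzos and Cebpz the values were -0.36 and -0.24, and neither was called.

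Kcnd3os and Taco1os met the count minimum and did not pass the test's filter. Kcnd3os had 3, 3 and 4 counts in the cKO and 5, 13 and 22 in the wild type. Its partner Kcnd3, a potassium channel gene, had 43.6, 52.5 and 51.2 CPM against 54.7, 85.8 and 115 CPM and fell by 0.80 on the log2 scale (edgeR adjusted p 0.0321). Taco1os had 8, 5 and 1 counts against 4, 11 and 12. Just inside the minimum stood Taco1os with at most 12 counts in a library and Irx3os with at most 15. Just outside it stood Chrna1os with 19, Parvaos with 17 and Dhrs13os with 13 counts, each reaching 10 in 1 library only.

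Of the 197 named candidates, 159 fell below the minimum, 88 of them with 0 counts in all 6 libraries and 71 with some counts. Hopxos was among those at 0, which allows up to 0.0882 to 0.303 TMM-scaled CPM, depending on the library (3 counts, counting error only). Its partner Hopx, a small homeodomain protein gene, had 29, 14 and 17 counts in the cKO and 192, 631 and 796 in the wild type, and fell by 4.73 in log2 units (SE 0.629, edgeR adjusted p 0.00112). Hopxos shares 412 exon bases with Hopx, 24.8% of its own and 27.2% of those of Hopx. Over all annotated features with an RPKM entry, 78.2% of the 193 whose exon bases all lie in exons of other genes had 0 counts in every library, against 27.6% of the 19256 that share none. Among long noncoding genes these shares were 91.5% of 82 and 48.9% of 2297. Long noncoding covers the GENCODE types lincRNA, antisense, bidirectional promoter RNA, processed transcript, sense overlapping and sense intronic. Among protein-coding genes the shares were 64.4% of 87 and 19.2% of 15095. Where above 0 and up to 50% of exon bases were shared, counts of 0 were rarer than where none was. They were found in 13.1% of 7354 features in all, 41.3% of 1444 long noncoding genes and 5.48% of 5799 protein-coding genes. A count of 0 for an overlapping feature does not show that its RNA was absent. How the counting treated reads on shared bases was not given in the sources used here.

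**Figure D5:**
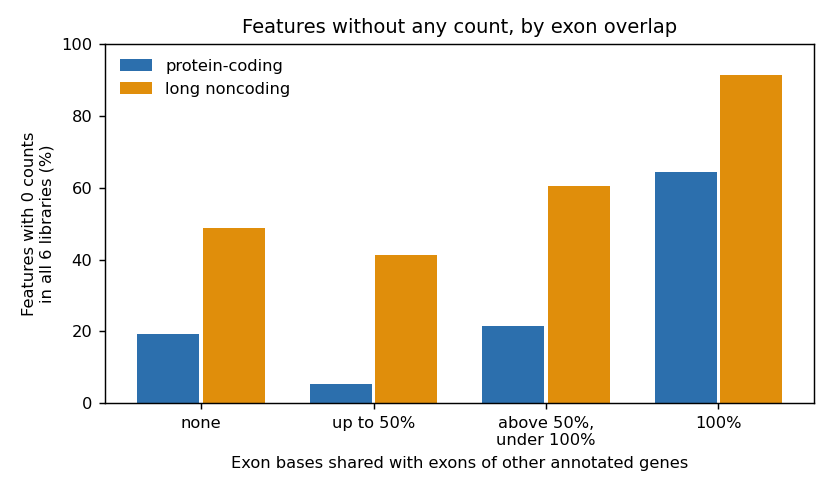
Percentage of annotated features with 0 counts in all 6 libraries, by the share of their exon bases that lie in exons of other genes, for protein-coding (blue) and long noncoding (orange) genes. The bars are highest where all exon bases are shared, at 64.4% and 91.5%, and lower where none is shared, at 19.2% and 48.9%. They are lowest where up to 50% of exon bases are shared, at 5.48% and 41.3%.

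Opposite-strand features with a number after the ending formed a second list, of which 8 of 83 met the minimum. Of these 8, 3 were called (37.5%), near the 32.6% of all features. Sox5os2, among the 3, met the minimum through wild type libraries alone. Six3os1, which overlaps the start of the lens and retina factor gene Six3, had 510, 526 and 445 CPM in the cKO and 291, 290 and 333 CPM in the wild type. All knockout libraries lay above the wild type, and it rose by 0.70 in log2 units (SE 0.112, edgeR adjusted p 0.00268). Six3 had a log2 change of 0.16 (edgeR adjusted p 0.23). Pax6os1 rose by 1.07 (edgeR adjusted p 0.0123) and Pax6, which encodes a factor needed for eye formation, rose by 0.46 (edgeR adjusted p 0.0225).

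Sox5os2 lies within the span of Sox5 and shares no exon base with it. It had 2, 2 and 1 counts in the cKO and 14, 27 and 18 in the wild type, and fell by 3.45 in log2 units (SE 0.578, edgeR adjusted p 0.00326). Sox5, an SRY-box factor gene, had a log2 change of 0.53 (edgeR adjusted p 0.186). Cdrt4os1, Kcnmb4os2, Phf2os1, Ptgs2os2 and Raxos1 were not called.

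Among overlapping and antisense RNAs listed by other names, Sox2ot fell by 1.17 on the log2 scale (edgeR adjusted p 0.0018). It had 59.5, 70.1 and 64.4 CPM in the cKO and 106, 163 and 165 CPM in the wild type. Sox2, the single-exon gene inside it, was listed at 0 in all 6 libraries. Airn, the antisense RNA of the imprinted Igf2r locus, rose 2.15-fold (edgeR adjusted p 0.0269), and Nespas had a log2 change of 1.15 (edgeR adjusted p 0.165). Kcnq1ot1 had 0 counts in all 6 libraries and no RPKM entry. Of 12 lens transcription factor genes listed, 10 were tested. Sox1, like Sox2, was listed at 0 in all 6 libraries and was not tested. Gata3, Meis1, Pax6 and Tfap2a rose, Foxe3, Hsf4, Maf and Prox1 fell, and Six3 and Pitx3 were not called.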

How the data were processed

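RNA was measured by single-end sequencing of 51 bp reads in 3 libraries per group. Per the file headers, the authors deposited raw counts, CPM and RPKM values for each feature. The deposited CPM equals the count divided by the library total. The RPKM made by the authors implies 1 length per feature, equal to the GENCODE M21 exon bases for 25 of the 38 members. Per the submitters' processing notes, the build was GRCm38 and edgeR was used; the aligner and the counting program were not given in the sources used here. For 26 features, count and CPM disagreed between names, and these were left out. Of 41128 features, 19852 had no count.

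Counts were tested with edgeR 4.0.16 (filterByExpr with a minimum count of 10, TMM, quasi-likelihood test, R 4.3.3), adjusted over 14271 features at 0.05. Reported CPM are TMM-scaled. The script was tested on simulated data. Exon overlap came from GENCODE M21. Ratios used a pseudocount of 0.5 CPM and an exact permutation test. Alternatives were DESeq2 1.42.0, limma-voom 3.58.1, other scalings, filters and pseudocounts, a replicate block and leaving out each library.

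Named were Prox1os and Hopxos, up to 6 called members per direction, the 4 with the highest RPKM, the 4 sharing most exon bases with the partner, and the partners. Members and lists were chosen with earlier results of these data known.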

Additional observations from a re-analysis of the deposited data

How the results depend on the processing

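With library totals alone as the scaling, 11 members were higher and 1 lower in the knockout, 5423 features were higher and 945 lower over all, and 7 pairs had both genes called. Leaving out 1 library at a time gave between 1 and 7 members higher, between 1 and 3 lower, between 836 and 2400 features higher, between 1431 and 2917 lower and between 1 and 6 pairs with both called. The counts of 1 member higher and 1 lower came without wild type library 2 or 3; the cause was not tested. Among the 18 members that share no exon base with the partner, 4 were higher and 0 lower. That is 22.2% called, against 32.6% of all features tested, of which 15.9% were higher and 16.8% lower. Prox1os and Sp3os, the members called lower, share 133 and 109 exon bases with their partners. Among the 11 that share none with any gene, 1 was higher and 0 lower (9.09% called). By upper quartile scaling, DESeq2, limma-voom, no filter, a filter of 1 CPM or a higher count minimum for members, between 5 and 7 were higher and 2 lower. With the replicate number as a block, 5 were higher and 2 lower, and 2020 and 2156 features over all; Vax2 then passed (edgeR adjusted p 0.0325) and Dio3 did not (0.0643). Same-numbered libraries deviated with correlations of -0.0276, 0.254 and 0.111, and knockout library 1 correlated best with wild type library 2 (0.0266), so the numbers were not taken as pairs.

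Prox1os kept its direction and its call in every alternative run, and its ratio to Prox1 was lower by 3.02 and 2.79 on the log2 scale (-3.02 and -2.79) with 0.1 or 1 CPM added. Signs turned only in genes that were not called. With library totals alone, log2 changes were 0.35 in Slc7a6os, 0.28 in Wdr83os, 0.31 in Wdr83 and 0.17 in Ino80d. Slc7a6os was at 0.04 by upper quartile scaling and 0.02 by limma-voom. Without 1 library, the ranges were -0.17 to 0.08 for Slc7a6os, -0.21 to 0.04 for Wdr83os, -0.17 to 0.03 for Wdr83, -0.05 to 0.15 for Zeb2, -0.10 to 0.47 for Ino80dos and -0.32 to 0.02 for Ino80d; the cause was not tested. The totals of 10907877 and 9082219 counts in knockout libraries 2 and 3 put the limit that a count of 0 allows at 0.25 and 0.303 TMM-scaled CPM.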
